A study of Mus musculus with 36 samples.

Results

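Desert hedgehog (Dhh), 5 genes that receive, limit or transmit its signal (Ptch1, Hhip, Gli1, Gli2 and Gli3) and 4 genes of platelet-derived growth factor (PDGF) signalling (Pdgfa, Pdgfb, Pdgfra and Pdgfrb) were followed through sex determination of the mouse gonad. These 10 genes were chosen by their symbols from 19938 genes measured, and each was read by a single probe set. Supporting cells, the somatic lineage from which testicular Sertoli cells and ovarian granulosa cells arise, and germ cells had been sorted from XX and XY fetal gonads 11.5, 12.5 or 13.5 days post coitum (dpc). Their RNA was hybridised to Affymetrix mouse gene arrays, with 3 arrays in each of 12 groups.

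XX supporting cells at all 3 stages and XY supporting cells at 11.5 dpc carried the Tg(Sry-EGFP)92Ei reporter and were CD-1 progeny. XY supporting cells at 12.5 and 13.5 dpc came from a line reporting Sox9, labelled Tg(Sox9-cre/ERT2)1Msan/J and C57BL/6 progeny. The labels name this line by its Cre allele and do not name its fluorescent protein. Germ cells of both sexes were sorted by an Oct4 reporter on a mixed background with C57BL/6NJ descent. Gonads of each sex were pooled and dissociated with trypsin before the sort with DAPI. Sex was therefore compared within 1 reporter line at 11.5 dpc only, whereas at 12.5 and 13.5 dpc sex, reporter and strain cannot be told apart in supporting cells. The same holds for the change of XY supporting cells from 11.5 to 13.5 dpc, and for reporter and cell type between supporting and germ cells. The labels do not say whether replicate arrays came from separate pools, so every p-value measures the spread between these arrays only, which may be technical. In sorted populations, fewer cells expressing a gene and less of its RNA per cell cannot be told apart.

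DHH is a secreted protein made by Sertoli cells, and it signals to interstitial cells of the fetal testis, where it is needed for fetal Leydig cells to form. It binds the receptor PTCH1, which releases the transducer Smoothened and lets GLI transcription factors act; PTCH1, HHIP and GLI1 are themselves classical targets of the pathway. PDGFA is a secreted growth factor of XY Sertoli cells that acts on the receptor PDGFRA of interstitial cells, while PDGFB and PDGFRB are best known from blood vessels and pericytes.

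Sequences before annotated transcript starts of 4 genes are shown because Dhh, Ptch1 and Pdgfa were each higher in XY than in XX supporting cells at 12.5 and 13.5 dpc, while Pdgfra differed most at 11.5 dpc. Each run is the 250 bases before a start site, 5′ to 3′ on the strand of the gene, from RefSeq on GRCm38.p6. Capitals mark the GC box GGGCGG or its complement CCGCCC, the only one of 5 motifs found in them.
Dhh: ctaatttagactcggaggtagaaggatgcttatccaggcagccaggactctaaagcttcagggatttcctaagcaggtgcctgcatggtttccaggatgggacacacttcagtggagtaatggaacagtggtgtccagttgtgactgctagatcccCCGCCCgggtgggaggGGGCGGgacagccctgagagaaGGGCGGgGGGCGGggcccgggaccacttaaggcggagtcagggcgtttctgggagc
Ptch1: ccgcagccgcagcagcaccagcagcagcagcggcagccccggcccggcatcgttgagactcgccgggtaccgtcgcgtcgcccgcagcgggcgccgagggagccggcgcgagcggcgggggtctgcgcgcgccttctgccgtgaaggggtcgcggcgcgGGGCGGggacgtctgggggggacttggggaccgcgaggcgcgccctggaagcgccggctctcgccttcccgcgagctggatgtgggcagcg
Pdgfa, downstream start: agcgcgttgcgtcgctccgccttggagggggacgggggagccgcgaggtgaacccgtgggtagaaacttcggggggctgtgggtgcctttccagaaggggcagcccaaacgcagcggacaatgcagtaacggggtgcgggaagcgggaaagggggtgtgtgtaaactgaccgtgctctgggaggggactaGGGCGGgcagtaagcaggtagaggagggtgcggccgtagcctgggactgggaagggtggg
Pdgfa, upstream start: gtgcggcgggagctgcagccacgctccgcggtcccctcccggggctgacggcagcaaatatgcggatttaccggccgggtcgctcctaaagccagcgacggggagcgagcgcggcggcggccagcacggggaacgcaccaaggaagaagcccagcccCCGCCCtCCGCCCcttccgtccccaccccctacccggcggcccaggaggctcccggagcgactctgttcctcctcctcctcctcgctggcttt
Pdgfra: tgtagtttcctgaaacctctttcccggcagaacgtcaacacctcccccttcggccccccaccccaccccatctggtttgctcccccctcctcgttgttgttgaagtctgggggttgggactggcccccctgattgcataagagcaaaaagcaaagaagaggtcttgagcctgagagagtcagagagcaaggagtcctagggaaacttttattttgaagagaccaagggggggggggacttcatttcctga
The Dhh run lies almost wholly before the span annotated for the gene, whereas those of Ptch1, Pdgfa and Pdgfra lie inside that span, before internal start sites. The runs lie at chr15:98898541-98898790 on the minus strand for Dhh, chr13:63565736-63565985 on the minus strand for Ptch1, chr5:138994282-138994531 and chr5:138994945-138995194 on the minus strand for Pdgfa, and chr5:75152001-75152250 on the plus strand for Pdgfra. RefSeq windows of 7 of the 10 genes were searched, 8 windows in all. No window was searched for Gli1, Pdgfb and Pdgfrb, so the counts that follow leave these genes out. The GC box lay in 7 of the 8 windows, with 4 copies in that of Dhh, and in 32.7% of 32851 mouse windows of the same length. It was added to the search after the other motifs had given no match, and it says nothing about any factor. The letters of a GLI motif (GACCACCCA, in 0.225% of all windows), an SF-1 motif (AAGGTCA, 4.08%), a SOX motif (AACAAT, 9.42%) and a GATA motif (AGATAA, 9.99%) were searched on both strands and were in none of the 8 windows, which says only that these letters are not there.

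All levels are deposited log2 values on the RMA scale, so a difference of 1 is a doubling. Tests are limma's moderated test on 35 arrays with Benjamini-Hochberg adjustment over all 19938 genes, and a gene counts as past the test below an adjusted p of 0.05. The array labelled germ XX 12.5 dpc replicate 3 was left out, leaving 2 arrays in that group: its germ cell gene Ddx4 was at 5.04, against 10.46 or more in each of the 17 other germ cell arrays. Within each array the deposited values also fell into sets of table rows with their own scale, with medians 0.02 to 0.75 apart. Results are therefore also given with those sets brought to a common scale ("aligned") wherever that changed a call. The sort labels were borne out by most defining markers. Sox9 averaged 11.03 to 11.68 in XY and 8.46 to 8.77 in XX supporting cells, Amh reached 9.99 and 9.84 in XY cells at 12.5 and 13.5 dpc against 5.90 to 5.99 in XX, and the median of 10 germ cell markers was at most 6.61 in any supporting array. Foxl2, the defining transcription factor of pregranulosa cells, was the exception, with group means between 6.15 and 6.61 in XX and XY supporting cells alike.

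Dhh, the ligand, was highest in XY supporting cells of 12.5 and 13.5 dpc, 4.27-fold and 3.16-fold above XX cells of the same stage. At 11.5 dpc the XX arrays read 5.82, 5.91 and 5.87, and the XY arrays 6.19, 6.39 and 6.55. At 12.5 dpc the XX arrays read 5.77, 6.43 and 6.13, and the XY arrays 8.55, 8.22 and 7.84. At 13.5 dpc the XX arrays read 6.25, 5.79 and 5.99, and the XY arrays 7.52, 7.74 and 7.76. At every stage all XY arrays were above all XX arrays of that stage, by a gap of 0.27 at 11.5 dpc and of 1.40 and 1.27 later. The XX values and the 17 germ cell values, which ran from 5.52 to 6.43, covered the same range.

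In limma's fit the log2 difference of Dhh between XY and XX supporting cells was 2.09 at 12.5 dpc (SE 0.20, adjusted p = 7.71e-12) and 1.66 at 13.5 dpc (SE 0.20, adjusted p = 6.44e-09). At 11.5 dpc the difference was 0.51 (95% confidence interval 0.10 to 0.92) with an adjusted p of 0.261 in limma's fit. With aligned row sets it was 0.58 and past the test (adjusted p = 0.000268), as it was with array weights (adjusted p = 0.00802), so the call at this stage depends on the processing. The sex difference was larger at 13.5 than at 11.5 dpc by 1.15 (SE 0.29, limma adjusted p = 0.00816). Within XY supporting cells Dhh rose by 1.30 from 11.5 to 13.5 dpc, 2.45-fold (limma adjusted p = 4.42e-06), and in XX cells it differed by 0.14 (interval -0.27 to 0.55). From 12.5 to 13.5 dpc, both from the Sox9 line, the XY level differed by -0.53 (interval -0.94 to -0.12) without passing the test (adjusted p = 0.275 in limma's fit). Ordered by level, the XY supporting groups of 12.5, 13.5 and 11.5 dpc came before all 9 other groups. Of the 11 pairs of neighbours in that order 9 overlapped, and the exceptions were the steps from 12.5 to 13.5 dpc and from 13.5 to 11.5 dpc in XY supporting cells. For each of the other listed genes 10 or 11 such pairs overlapped, and the count was not made over all genes.

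Ptch1, the receptor and a target of the pathway, was higher in XY than in XX supporting cells at all 3 stages. The XX arrays read 8.73, 8.66 and 8.94 at 11.5 dpc, 8.93, 9.63 and 8.53 at 12.5 dpc, and 9.47, 9.13 and 9.23 at 13.5 dpc. The XY arrays read 9.63, 9.84 and 9.61 at 11.5 dpc, 10.85, 10.17 and 11.07 at 12.5 dpc, and 10.24, 10.18 and 10.34 at 13.5 dpc. No XX array reached the XY range of its own stage, although the XX array at 9.63 came within 0.54 of it at 12.5 dpc. The difference was 0.92 at 11.5 dpc (1.89-fold, SE 0.22, limma adjusted p = 0.00653), where both sexes carried the Sry reporter. It was 1.67 at 12.5 dpc (3.17-fold, limma adjusted p = 4.1e-08) and 0.97 at 13.5 dpc (1.96-fold, limma adjusted p = 0.000919).

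Ptch1 showed no measurable change of its sex difference between 11.5 and 13.5 dpc (0.06, interval -0.57 to 0.68, limma adjusted p = 1.0). Its level was 0.50 higher at 13.5 than at 11.5 dpc in XX cells and 0.56 higher in XY cells. Neither difference passed the test in limma's fit of the deposited values (adjusted p = 0.317 and 0.118), and both did with aligned row sets (0.52, adjusted p = 0.00481, and 0.46, adjusted p = 0.00755). These comparisons share their arrays with the sex comparisons and are not independent of them.

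Ptch1 was also higher in XY than in XX germ cells at 13.5 dpc, by 2.26-fold. The germ XY arrays read 8.85, 8.73 and 8.85 at 11.5 dpc, 9.80, 10.05 and 9.70 at 12.5 dpc, and 9.92, 10.33 and 10.42 at 13.5 dpc. The germ XX arrays read 8.69, 8.50 and 9.10, then 8.94 and 9.16 in the 2 arrays kept, then 9.41, 8.96 and 8.76. The sexes overlapped at 11.5 dpc and were apart at 12.5 and 13.5 dpc. Germ cells of both sexes came from the same reporter line, and the comparison of the sexes among them was added after the values had been seen. The difference was 0.05 at 11.5 dpc (interval -0.40 to 0.49). It was 0.80 at 12.5 dpc without passing the test (interval 0.30 to 1.29, limma adjusted p = 0.0803), and 1.18 at 13.5 dpc (SE 0.22, limma adjusted p = 0.00012). The 12.5 dpc difference depended on the processing: it passed limma's test with arrays centred (0.83, adjusted p = 0.0241), with quantile normalisation (0.75, adjusted p = 0.0388) and with the left-out array kept (0.97, adjusted p = 0.0134), and was 0.35 with aligned row sets (adjusted p = 0.294).

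At 13.5 dpc Ptch1 read 10.25 ± 0.08 (SD, n = 3) in XY supporting and 10.22 ± 0.27 (SD, n = 3) in XY germ cells, a difference of 0.03 (interval -0.42 to 0.47). Dhh in the same germ XY arrays read 5.64, 5.86 and 5.91, inside the range of the germ XX arrays of that stage (5.52 to 5.99). The summed level of 12 Sertoli markers was 81.4 to 87.9 in germ XY and 78.0 to 82.3 in germ XX arrays at 13.5 dpc, against 118 to 120 in XY supporting arrays. That of 6 measured fetal Leydig markers was 33.5 to 37.5 in germ XY and 34.96 to 37.14 in germ XX arrays. Their part in the Ptch1 level of germ cells was not tested.

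**Figure D1:**
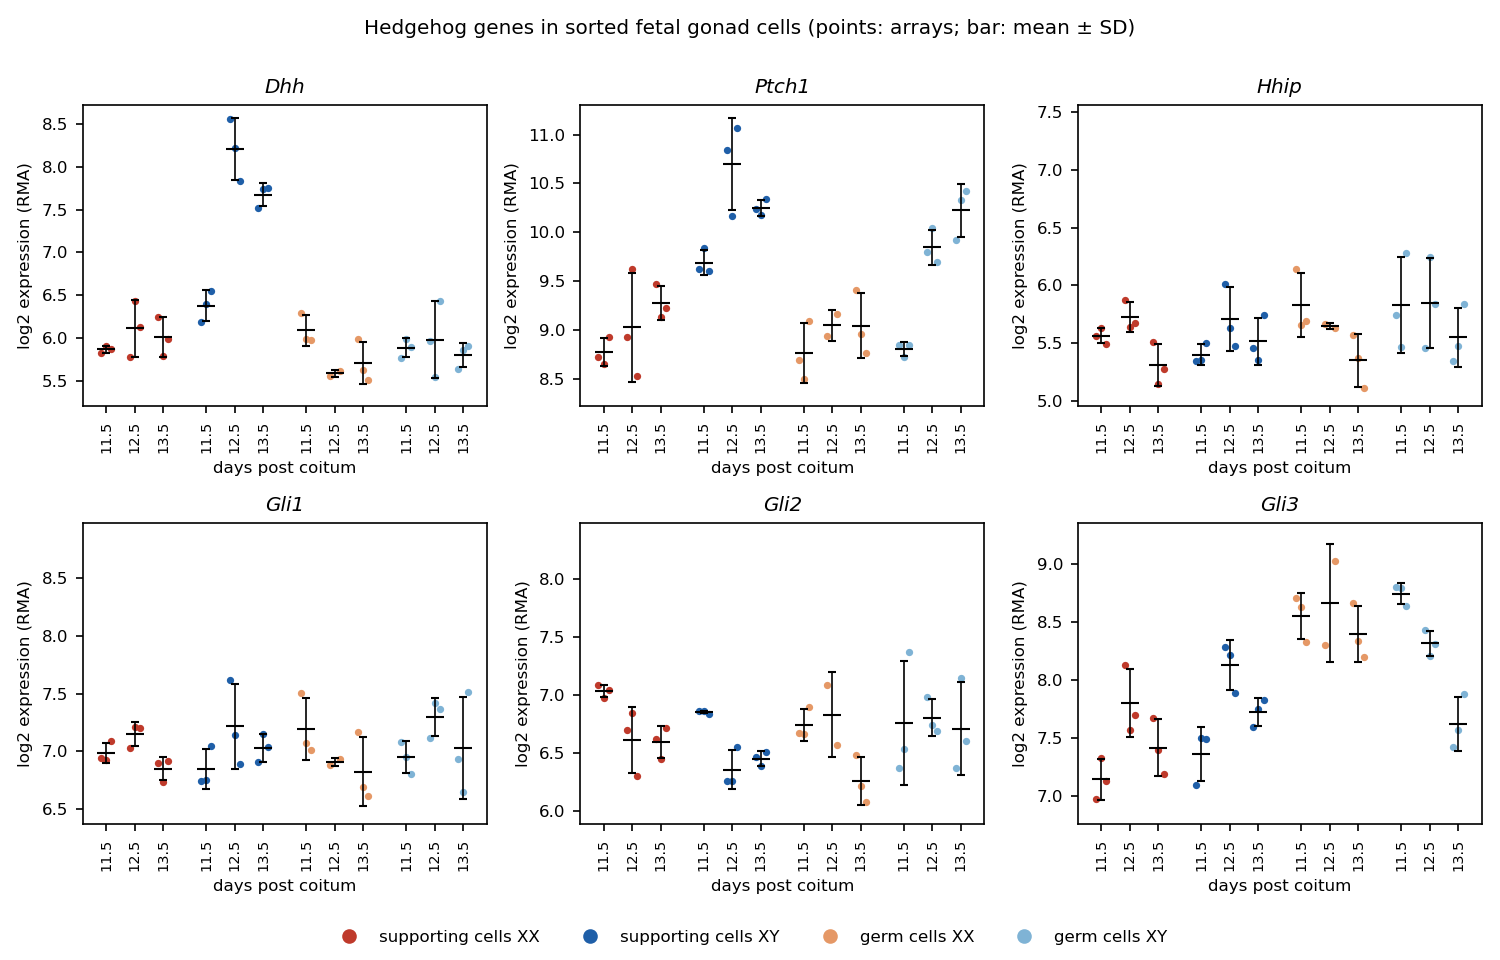
Deposited log2 level (vertical axis) of 6 Hedgehog genes in each array (points), with group mean and SD (bars), by days post coitum (horizontal axis) in XX and XY supporting and germ cells; germ XX 12.5 dpc has 2 arrays and all other groups 3. Dhh is 7.52 or higher in XY supporting cells of 12.5 and 13.5 dpc and at most 6.55 in all other groups, Ptch1 is higher in XY than XX supporting cells at every stage and in XY than XX germ cells at 13.5 dpc, and Hhip and Gli1 group means span no more than 0.54.

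Hhip and Gli1, the other classical targets of the pathway, passed the test in none of the 12 comparisons. HHIP is a membrane protein that binds and sequesters Hedgehog ligands, and its 12 group means lay between 5.31 and 5.85 (arrays 5.12 to 6.28). GLI1 is the activating GLI factor whose transcription reports pathway activity, and its group means lay between 6.82 and 7.30 (arrays 6.62 to 7.62). Both spans, 0.54 and 0.48, were below the median span of all genes, 0.76. Every neighbouring pair of groups overlapped, but so it did for Gli3 and Pdgfa, which spanned 1.60 and 0.99. The overlap therefore does not show a gene to be level. In XY minus XX supporting cells, in order of stage, Hhip differed by -0.16, -0.02 and 0.21 and Gli1 by -0.14, 0.07 and 0.18. The 95% intervals of the Gli1 differences ran from -0.54 to 0.26, -0.33 to 0.47 and -0.22 to 0.58, and do not reach the point estimate for Ptch1 at the same stage. At 13.5 dpc the Gli1 interval overlapped that of Ptch1, which began at 0.53, and the genes were not tested against each other. The intervals of Hhip ran from -0.58 to 0.25, -0.43 to 0.39 and -0.21 to 0.62. Hhip was dim, and its mean over the arrays exceeded that of 23.0% of genes.

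Gli2 and Gli3 encode the GLI factors that are present before the signal arrives, and neither passed the test between the sexes in supporting cells in the fit of deposited values. GLI2 is mainly an activator, and in supporting cells it was highest at 11.5 dpc: the XX arrays read 7.08, 6.98 and 7.04 and the XY arrays 6.86, 6.86 and 6.84. At 13.5 dpc the XX arrays read 6.61, 6.44 and 6.71 and the XY arrays 6.46, 6.38 and 6.51, below every 11.5 dpc array of the same sex. The differences of -0.44 in XX (interval -0.86 to -0.02) and -0.40 in XY (interval -0.82 to 0.02) did not pass the test in limma's fit (adjusted p = 0.405 and 0.318). With aligned row sets both passed, at -0.42 (adjusted p = 0.00209) and -0.41 (adjusted p = 0.00147).

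GLI3 acts mainly as a repressor when no ligand is present, and the 5 highest group means of its gene were all in germ cells. At 13.5 dpc the XX supporting arrays read 7.67, 7.39 and 7.19 and the XX germ arrays 8.66, 8.33 and 8.20, with no overlap. The supporting minus germ difference was -0.98 (1.97-fold lower in supporting cells, SE 0.20, limma adjusted p = 8.14e-05) in XX and 0.10 (interval -0.30 to 0.50) in XY. The XY germ arrays at 13.5 dpc read 7.42, 7.57 and 7.88, all below the XX germ arrays, whereas at 11.5 dpc they had read 8.80, 8.79 and 8.64. The germ cell sex difference was 0.19 at 11.5 dpc (interval -0.21 to 0.59), -0.35 at 12.5 dpc (interval -0.80 to 0.10) and -0.78 at 13.5 dpc (1.71-fold lower in XY, SE 0.20, limma adjusted p = 0.00578). In germ cells at 13.5 dpc Gli3 was thus lower and Ptch1 higher in XY. Between XX and XY supporting cells Gli2 differed by -0.18, -0.26 and -0.14 in order of stage, and the lower ends of the intervals were -0.60, -0.68 and -0.56. Gli3 differed by 0.22, 0.33 and 0.31 in order of stage, and the upper ends of the intervals were 0.62, 0.73 and 0.70. With array weights the Gli3 difference at 13.5 dpc passed limma's test (0.36, adjusted p = 0.0208), as did its change in XY cells from 11.5 to 13.5 dpc (0.36, adjusted p = 0.0204).

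Pdgfa, the ligand of the second pathway, did not differ measurably between the sexes at 11.5 dpc and was 1.92-fold and 1.82-fold higher in XY supporting cells at 12.5 and 13.5 dpc. The XX supporting arrays read 8.31, 8.24 and 8.36 at 11.5 dpc, 8.03, 8.10 and 7.52 at 12.5 dpc, and 7.72, 7.99 and 7.85 at 13.5 dpc. The XY arrays read 8.13, 8.32 and 8.36, then 9.07, 8.56 and 8.86, then 8.70, 8.78 and 8.66. The sexes overlapped at 11.5 dpc, and from 12.5 dpc every XY array was above every XX array of its stage. The difference was -0.03 at 11.5 dpc (interval -0.48 to 0.42), 0.94 at 12.5 dpc (SE 0.22, limma adjusted p = 0.0015) and 0.86 at 13.5 dpc (SE 0.22, limma adjusted p = 0.00445).

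The change of the Pdgfa sex difference from 11.5 to 13.5 dpc was 0.89 (interval 0.26 to 1.52) and did not pass the test in limma's fit of all groups (adjusted p = 0.118). It passed with aligned row sets (0.81, adjusted p = 0.000233), with only the 4 groups compared (adjusted p = 0.00149) and with array weights (adjusted p = 9.03e-05). Within each sex the 13.5 dpc level differed from that of 11.5 dpc by -0.45 in XX (limma adjusted p = 0.469) and by 0.44 in XY cells (adjusted p = 0.298). With aligned row sets these were -0.35 (limma adjusted p = 0.0262) and 0.47 (adjusted p = 0.00132), both past the test. Germ cells held Pdgfa too, between 7.57 and 9.14 over 17 arrays. XY supporting cells exceeded XY germ cells at 13.5 dpc by 0.69 (1.62-fold, limma adjusted p = 0.0155). That call was lost without germ XY 13.5 dpc replicate 1 (0.46, adjusted p = 0.136), without supporting XY 13.5 dpc replicate 2 (0.66, adjusted p = 0.0567) and with the left-out array kept (adjusted p = 0.0503). In XX cells of that stage the difference was -0.34 (limma adjusted p = 0.321), and -0.35 with aligned row sets (adjusted p = 0.00737). Between XY and XX germ cells of 13.5 dpc it was -0.17 (interval -0.62 to 0.28, limma adjusted p = 0.748), and -0.37 with aligned row sets, which passed (adjusted p = 0.00992).

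Pdgfb, the ligand of vessels, stayed between 6.69 and 7.09 in its 12 group means. Its supporting cell sex differences were -0.04, 0.28 and 0.00 in order of stage, and the 12.5 dpc value passed only with aligned row sets (0.37, limma adjusted p = 0.00641). Its span of 0.39 was wider than that of only 9.3% of genes.

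Pdgfra, the receptor for PDGFA, had the widest span of the 10 genes, 3.21, and peaked in XY supporting cells at 11.5 dpc. The XY arrays read 9.85, 9.54 and 9.55 at 11.5 dpc, 7.87, 7.10 and 7.86 at 12.5 dpc, and 7.18, 7.10 and 6.97 at 13.5 dpc. The XX arrays read 7.72, 8.15 and 7.66, then 6.89, 7.03 and 6.53, then 6.86, 6.67 and 7.13. At 11.5 dpc the lowest XY array stood 1.39 above the highest XX array, at 12.5 dpc only 0.07 above it, and at 13.5 dpc the sexes overlapped. Germ cell arrays ran from 6.10 to 7.46. XY supporting cells exceeded XY germ cells at 13.5 dpc by 0.44 without passing limma's test (interval -0.07 to 0.94, adjusted p = 0.239), and by 0.54 with aligned row sets, which passed (adjusted p = 0.00916). In XX cells that difference was 0.46 (limma adjusted p = 0.211), and 0.74 with array weights (adjusted p = 0.00329).

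The Pdgfra sex difference at 11.5 dpc, within 1 reporter line, was 1.80 (3.49-fold, SE 0.25, limma adjusted p = 1.13e-06). It was 0.80 at 12.5 dpc (1.74-fold, SE 0.25, limma adjusted p = 0.0247) and 0.19 at 13.5 dpc (interval -0.31 to 0.70), so that it shrank by 1.61 from 11.5 to 13.5 dpc (SE 0.36, limma adjusted p = 0.00223). XY cells fell by 2.56 over these days, 5.91-fold (SE 0.25, limma adjusted p = 3.27e-11), with a gap of 2.36 between the lowest 11.5 and the highest 13.5 dpc array. XX cells, all of the Sry line, fell by 0.96, 1.94-fold (SE 0.25, limma adjusted p = 0.0139). These comparisons share arrays with each other.

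The 11.5 dpc difference and the XY fall of Pdgfra held in every alternative, and the other calls did not. The 12.5 dpc call was lost without supporting XX replicate 3 (0.65, adjusted p = 0.145), XY replicate 1 (0.66, adjusted p = 0.158) or XY replicate 3 (0.67, adjusted p = 0.136). The fall in XX cells was lost without 11.5 dpc replicate 2 (-0.80, adjusted p = 0.137) and without 13.5 dpc replicate 1 (-0.94, adjusted p = 0.0532) or replicate 2 (-0.85, adjusted p = 0.106). With the left-out array kept, differences were the same and limma's adjusted p rose to 0.431 at 12.5 dpc, 0.634 for the XX fall and 0.367 for the shrinking sex difference.

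Because PDGFRA also marks mesenchyme, the level of 10 measured interstitial or stromal markers is given beside it. Their sum was 71.2 to 71.9 in XY and 71.4 to 73.0 in XX supporting arrays at 11.5 dpc, and 71.3 to 72.8 and 69.7 to 70.5 at 13.5 dpc. Of the 10, 1 was lower in XY at 11.5 dpc, 1 higher and 1 lower at 12.5 dpc, and 1 higher at 13.5 dpc. At these stages 3.33%, 13.4% and 12.2% of all genes were past the test. Their median XY minus XX difference was -0.04, -0.05 and 0.01 in order of stage. Nr2f2, 1 of the 10 and a defining gene of interstitial progenitors, averaged lower in XY than XX supporting cells at 11.5 dpc (8.39 against 9.52), 12.5 dpc (7.15 against 8.69) and 13.5 dpc (7.41 against 8.06). The 13.5 dpc difference of Nr2f2 did not pass limma's test, and this gene does not stand for the list. The part of interstitial cells in the Pdgfra levels was not tested.

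Pdgfrb, the receptor of pericytes, had group means between 6.15 and 6.60 (arrays 5.88 to 6.88). Its sex differences in supporting cells were -0.17, 0.05 and 0.13 in order of stage, and their intervals lay between -0.56 and 0.52. The 8 pericyte or smooth muscle markers summed to between 51.9 and 56.2 in all supporting arrays, with 1 lower in XY at 11.5 dpc, 1 higher and 2 lower at 12.5 dpc, and 2 higher and 1 lower at 13.5 dpc. The shares of all genes past the test at these stages were 3.33%, 13.4% and 12.2%.

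**Figure D2:**
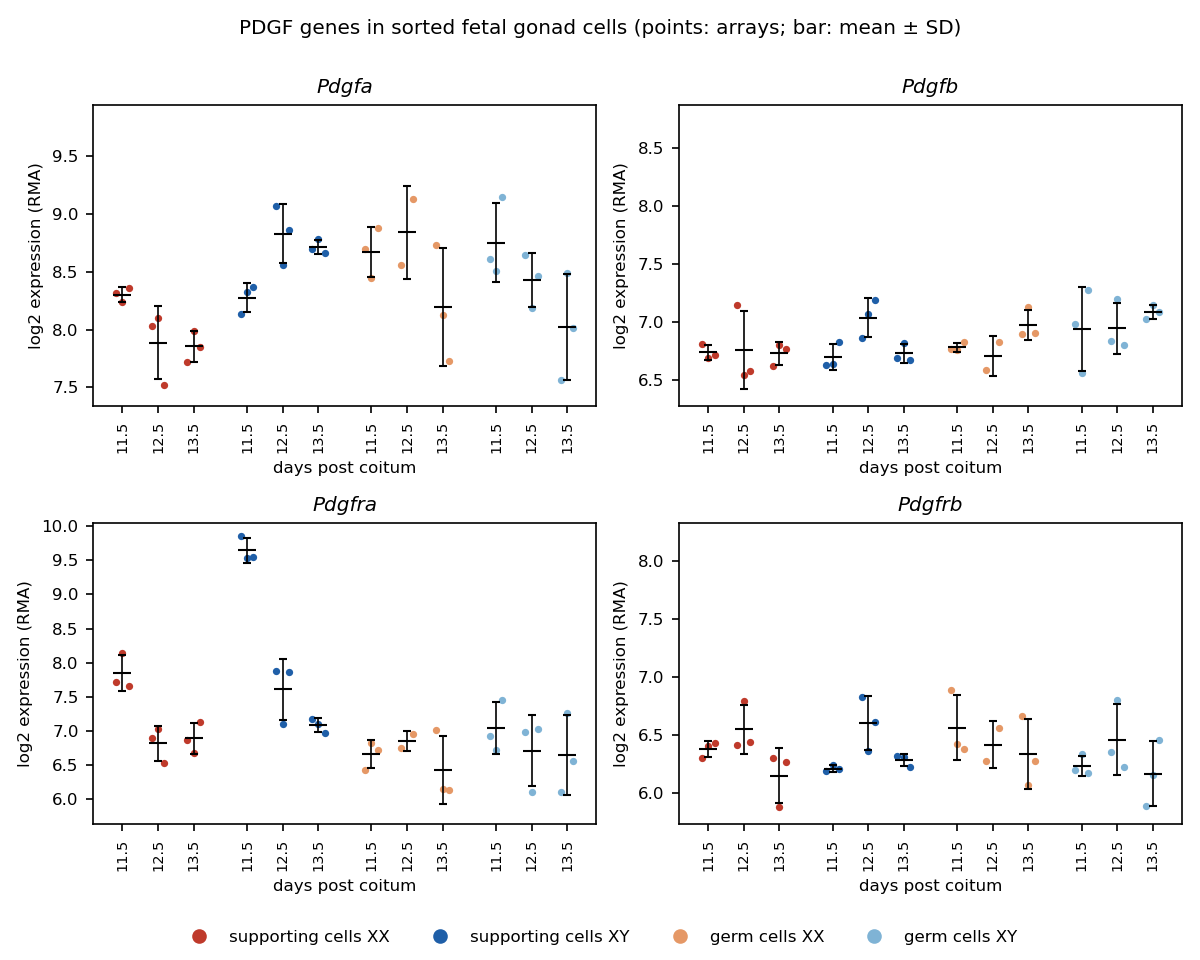
Deposited log2 level (vertical axis) of 4 PDGF genes in each array (points), with group mean and SD (bars), by days post coitum (horizontal axis) in XX and XY supporting and germ cells; germ XX 12.5 dpc has 2 arrays and all other groups 3. Pdgfra stands between 9.54 and 9.85 in XY supporting cells at 11.5 dpc and at most 8.15 in all other groups, Pdgfa of the sexes parts from 12.5 dpc, and Pdgfb and Pdgfrb are nearly level.

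Counted over the 10 genes, 2 were higher in XY supporting cells at 11.5 dpc (Ptch1 and Pdgfra), where 3.33% of all genes were past the test, 1.62% higher and 1.71% lower. At 12.5 dpc 4 were higher (Dhh, Ptch1, Pdgfa and Pdgfra), against 13.4% of all genes past the test, 8.49% higher and 4.89% lower. At 13.5 dpc 3 were higher (Dhh, Ptch1 and Pdgfa), against 12.2% of all genes, 7.21% higher and 5.02% lower. None of the 10 was lower in XY at these stages by limma's test of the deposited values. The median difference of the 10 was -0.04, 0.31 and 0.20 in order of stage, against -0.06, 0.04 and -0.02 over all genes.

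From 11.5 to 13.5 dpc, 1 of 10 fell in XX cells (Pdgfra), where 4.1% of all genes passed, 2.37% higher and 1.73% lower; the medians were -0.18 for the 10 and -0.03 for all genes. In XY cells 1 rose (Dhh) and 1 fell (Pdgfra), where 8.87% of all genes passed, 6.6% higher and 2.27% lower; the medians were 0.15 and 0.02. Members not given above differed over these days by -0.25 (Hhip) to 0.27 (Gli3) in XX and by 0.03 (Pdgfb) to 0.36 (Gli3) in XY cells, the others being Gli1 and Pdgfrb. The sex difference grew for 1 gene (Dhh) and shrank for 1 (Pdgfra), while it changed in 4.26% of all genes, 2.71% upward and 1.55% downward. For Hhip, Gli1, Gli2, Gli3, Pdgfb and Pdgfrb this change lay between 0.04 and 0.37. From 12.5 to 13.5 dpc in XY cells, within the Sox9 line, 0 of 10 passed limma's test, against 0.918% of all genes (0.14% higher and 0.777% lower). Without adjustment 4 of the 10 had a limma p below 0.05, as had 2616 of all 19938 genes. These 4 were Dhh, Ptch1 (-0.44), Gli3 (-0.41) and Pdgfra (-0.53), and Hhip, Gli1, Gli2, Pdgfa, Pdgfb and Pdgfrb differed by -0.32 to 0.10. The count past the adjusted test was 0 with aligned row sets and 1 with array weights (Ptch1, -0.59, adjusted p = 0.0457), and the medians were -0.31 for the 10 and -0.17 for all genes.

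Supporting cells differed from germ cells at 13.5 dpc in 1 of 10 genes in XX (Gli3, lower), against 26.4% of all genes (11.6% higher and 14.8% lower). In XY they differed in 2 of 10 (Dhh and Pdgfa, higher), against 25.1% of all genes (10.8% higher and 14.3% lower). Dhh was 3.65-fold higher in XY supporting than XY germ cells (log2 difference 1.87, SE 0.20, limma adjusted p = 1.12e-10) and differed by 0.30 in XX (interval -0.11 to 0.71). Hhip, Gli1, Gli2, Pdgfb and Pdgfrb differed between supporting and germ cells by -0.25 to 0.33 in XX and by -0.36 to 0.12 in XY. With array weights Gli2 in XX (0.44, limma adjusted p = 0.0215) and Pdgfb in XY (-0.38, adjusted p = 0.0111) passed. Between the sexes in germ cells, 0 of 10 passed limma's test at 11.5 dpc, against 0.0251% of all genes (0.0251% higher and 0% lower). Without adjustment 0 of 10 had a p below 0.05, against 586 of all 19938 genes, and 0 passed with array weights. The differences ran from -0.33 (Pdgfrb) to 0.38 (Pdgfra). At 12.5 dpc 0 of 10 passed, against 1.8% of all genes (0.426% higher and 1.37% lower). Without adjustment 1 of 10 (Ptch1) had a p below 0.05, against 2918 of all 19938 genes, and 0 passed with array weights. The 9 genes other than Ptch1 ran from -0.41 (Pdgfa) to 0.39 (Dhh and Gli1). At 13.5 dpc 1 was higher and 1 lower (Ptch1 and Gli3), against 9.21% of all genes (5.28% higher and 3.93% lower). The other 8 ran from -0.17 (Pdgfa and Pdgfrb) to 0.45 (Gli2), and Gli1 (0.55, limma adjusted p = 0.0196) and Gli2 (0.52, adjusted p = 0.024) passed with array weights.

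**Figure D3:**
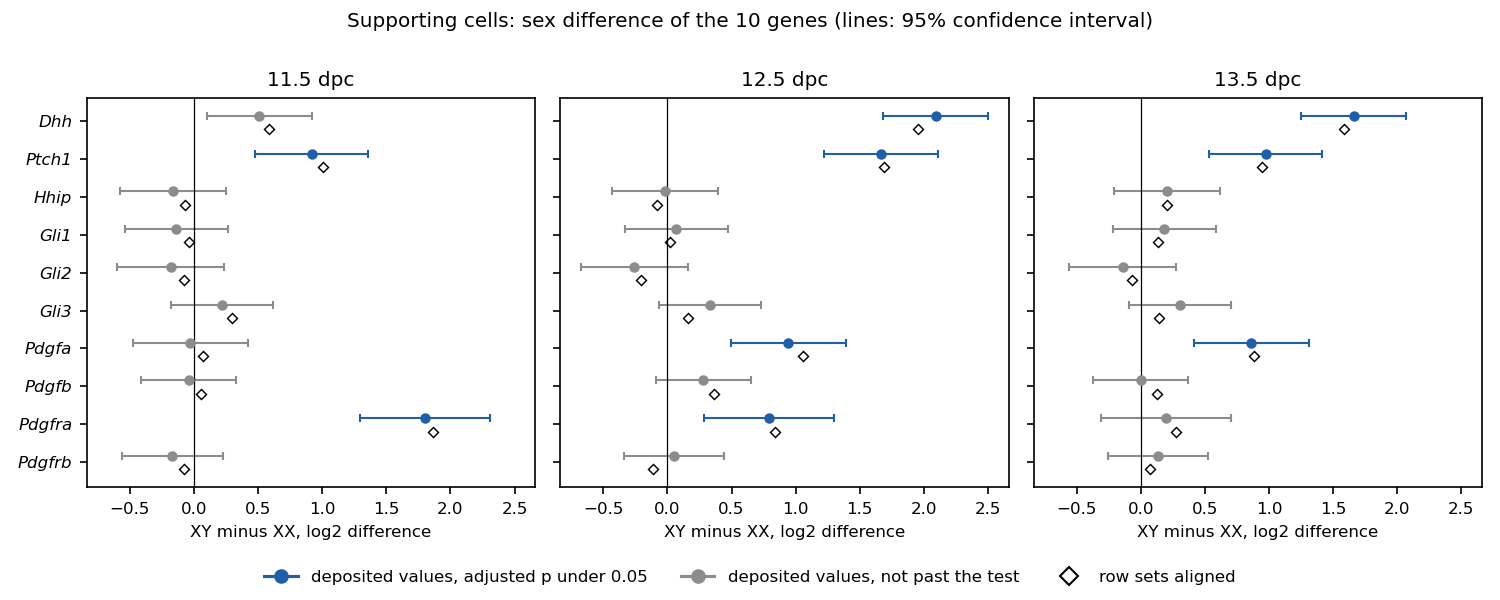
XY minus XX log2 difference in supporting cells (horizontal axis) for each of the 10 genes (vertical axis) at each stage (11.5 to 13.5 dpc); circles are deposited values with 95% confidence intervals, coloured where the adjusted p is below 0.05, and diamonds are the same difference with aligned row sets. The Dhh difference goes from 0.51 to 2.09 and 1.66, that of Pdgfra from 1.80 to 0.80 and 0.19, and Ptch1 is past the test at every stage.

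**Figure D4:**
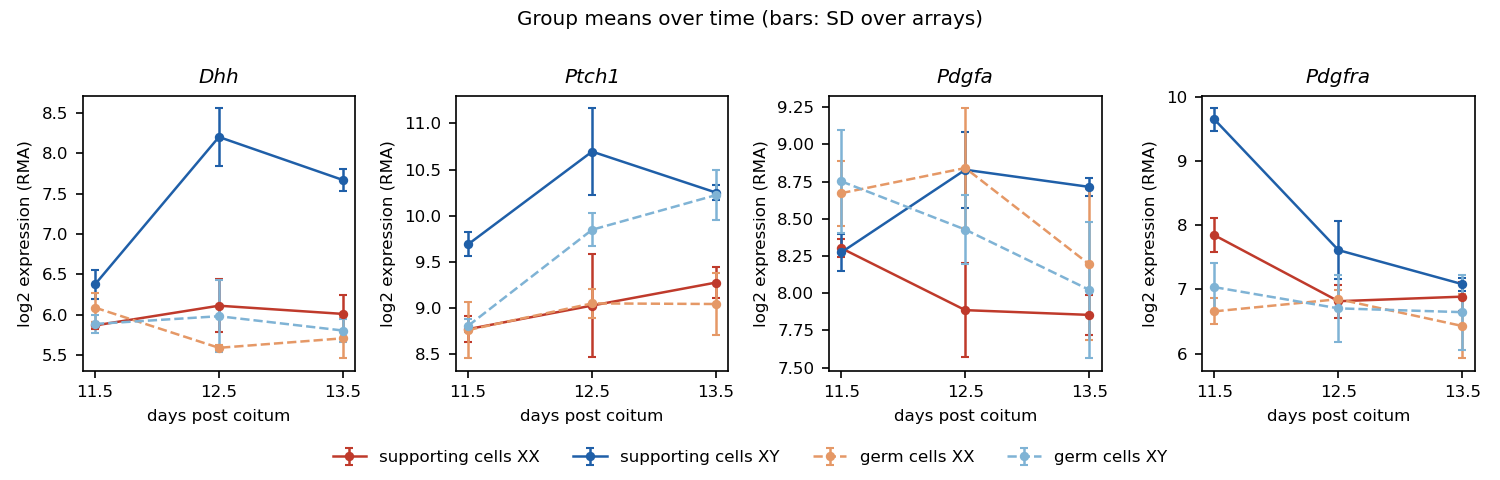
Mean log2 level with SD (vertical axis) of Dhh, Ptch1, Pdgfa and Pdgfra against days post coitum (horizontal axis) in the 4 cell and sex classes (n = 3 arrays a point, 2 for germ XX at 12.5 dpc). In XY supporting cells the reporter line changes between 11.5 and 12.5 dpc, where Dhh goes from 6.38 to 8.20 and Pdgfra from 9.65 to 7.61.

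Among other genes that receive or process Hedgehog, Boc had the largest differences past the test. Of 21 measured on a list of 23, 1 was lower in XY supporting cells at 11.5 dpc, 1 higher and 3 lower at 12.5 dpc, and 1 lower at 13.5 dpc, where 3.33%, 13.4% and 12.2% of all genes were past the test. Their medians were -0.09, -0.10 and -0.18, against -0.06, 0.04 and -0.02 over all genes. The lower genes included the co-receptors Boc and Cdon, which help PTCH1 bind ligand. Boc differed by -1.54 at 12.5 dpc (6.63 in XY against 8.17 in XX, limma adjusted p = 2.4e-07) and by -1.91 at 13.5 dpc (6.37 against 8.28, limma adjusted p = 1.11e-09), in every alternative past the test. Cdon differed by -1.01 at 11.5 dpc (limma adjusted p = 0.0457), and the call was lost in 9 of 15 alternatives. Without XX 11.5 dpc replicate 2 or XY 11.5 dpc replicate 3 the Cdon difference was -0.69 and -0.61 (adjusted p = 0.53 and 0.708), without XX replicate 1 or XY replicate 2 -0.99 and -1.02 (adjusted p = 0.133 and 0.0973), and with aligned row sets -0.89 (adjusted p = 0.0805). Scube1, of the family that helps Hedgehog leave the cell, was higher by 0.94 at 12.5 dpc (limma adjusted p = 0.000795). The cilium motor gene Kif3a was lower at that stage (-0.94, limma adjusted p = 0.000523), as was the transport gene Ift88 (-0.63, adjusted p = 0.0285). The Ift88 call was lost without replicate 1 or 2 of XX and without replicate 1 or 3 of XY (-0.62 to -0.49, adjusted p = 0.0767 to 0.189), and with only the groups compared (adjusted p = 0.0818).

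Genes known as Hedgehog targets in mesenchyme went both ways. Of 18 measured on a list of 19, 1 was higher and 1 lower in XY at 11.5 dpc, 1 higher and 2 lower at 12.5 dpc, and 2 higher and 3 lower at 13.5 dpc, with medians between -0.04 and -0.02; the all-gene shares past the test at these stages were 3.33%, 13.4% and 12.2%. Ccnd1, which encodes cyclin D1, was higher by 1.42 at 11.5 dpc (limma adjusted p = 7.28e-05). Nr5a1, the gene of SF-1, was higher by 1.03 at 12.5 dpc (limma adjusted p = 0.0003). Bmp4, a secreted growth factor, was lower at 12.5 and 13.5 dpc (-1.15 and -1.12, limma adjusted p = 8.76e-05 and 0.00013). Bcl2, an inhibitor of apoptosis, was lower at these stages too (-0.88 and -0.78, limma adjusted p = 0.00276 and 0.00945), and so was the transcription factor gene Osr2 at 13.5 dpc (-1.0, adjusted p = 0.0059). With the left-out array kept these 3 calls were lost (adjusted p = 0.0702, 0.134 and 0.0545), and the later Bcl2 call also without XY 13.5 dpc replicate 1 (-0.70, adjusted p = 0.0633). Sfrp1, which encodes a secreted Wnt inhibitor, was higher by 0.65 at 13.5 dpc (limma adjusted p = 0.0377). That call was lost without any 1 of the 6 arrays compared (0.58 to 0.72, adjusted p = 0.0505 to 0.158).

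Cyp11a1, which encodes the first enzyme of steroid synthesis, was lower in XY at 11.5 dpc (-0.97, 6.85 against 7.82, limma adjusted p = 0.00496) and higher by 1.65 at 13.5 dpc (7.06 against 5.41, limma adjusted p = 1.22e-07). The first of these calls was lost without supporting XX 11.5 dpc replicate 2 (-0.60, adjusted p = 0.268) and with only the groups compared (adjusted p = 0.208). Cyp11a1 is itself among the fetal Leydig markers counted next. All 6 measured of 8 listed were higher in XY supporting cells at 13.5 dpc and 3 of 6 at 12.5 dpc, where 7.21% and 8.49% of all genes were higher. Their sums were 48.2 to 49.4 against 40.3 to 41.4 at 13.5 dpc and 44.1 to 46.7 against 38.6 to 42.3 at 12.5 dpc. Cyp17a1, an enzyme of androgen synthesis, averaged 7.47 in XY and 5.53 in XX cells at 13.5 dpc. Leydig cells respond to DHH, and the part of such cells in the Ptch1 level of XY supporting cells was not tested. At 11.5 dpc, where Ptch1 differed by 0.92, 1 of these 6 markers was higher and 1 (Cyp11a1) lower in XY. Of all genes 3.33% passed the test at that stage. The sums of the 6 markers were 41.5 to 43.0 in XY and 40.3 to 41.3 in XX arrays, without overlap. The part of Leydig cells was not tested at this stage either. Cyp17a1 averaged 5.23 in both sexes at that stage.

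Of 24 other genes of the PDGF family and its signalling, all measured, 1 was higher in XY at 11.5 dpc, 4 were higher and 4 lower at 12.5 dpc, and 1 was higher and 3 lower at 13.5 dpc, with medians between -0.04 and -0.01. Beside these counts stand the 3.33%, 13.4% and 12.2% of all genes past the test. Plat, the gene of tissue plasminogen activator, which can activate PDGF-C, was higher by 2.67 at 11.5 dpc (9.91 against 7.24, limma adjusted p = 1.54e-13) and by 0.89 at 12.5 dpc (limma adjusted p = 0.00223). The later call was lost without XX 12.5 dpc replicate 2 (0.67, adjusted p = 0.0571) and with the left-out array kept (adjusted p = 0.127). The proprotein convertase gene Pcsk5 was higher by 1.33 and 1.03 at 12.5 and 13.5 dpc (limma adjusted p = 1.44e-06 and 0.000169). Pdgfd, a ligand of PDGFRB, was lower at the same stages (-1.24 and -1.0, limma adjusted p = 1.09e-05 and 0.000368), where Pdgfa was higher.

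Among molecules that act below the receptors, Src and Plcg1 were higher by 0.84 and 0.79 at 12.5 dpc (limma adjusted p = 0.00153 and 0.00314). Pik3r1, Sos1 and Rasa1 were lower at that stage (-0.90, -0.72 and -0.69, limma adjusted p = 0.0106, 0.0125 and 0.0121), and Rasa1 also at 13.5 dpc (-0.62, adjusted p = 0.0304). The related receptor gene Kit was lower at 13.5 dpc (-0.95, limma adjusted p = 0.000806). The Plcg1 call was lost without XY 12.5 dpc replicate 1 (0.62, adjusted p = 0.056). That of Pik3r1 was lost without the same array (-0.77, adjusted p = 0.0899) and without XX 12.5 dpc replicate 2 (-0.59, adjusted p = 0.202), and that of Sos1 without XX or XY 12.5 dpc replicate 2 (-0.54 and -0.64, adjusted p = 0.146 and 0.0611). The Rasa1 call at 12.5 dpc was lost without replicate 1 or 2 of either sex (-0.65 to -0.60, adjusted p = 0.053 to 0.087), and at 13.5 dpc without replicate 1 or 2 of XX or any XY replicate (-0.65 to -0.56, adjusted p = 0.0619 to 0.133). With the left-out array kept, the calls of Pik3r1 and Kit were lost (adjusted p = 0.339 and 0.305).

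The genes whose 12 group means ran most like a listed gene were taken for the 4 listed genes that spanned at least 1. The correlations are descriptions over 12 means of shared arrays, chosen from 19938 genes, and carry no test. Dhh was most like Col9a3 (Pearson r 0.986), a collagen chain, Olfml1 (0.984) and Rasl12 (0.982), all highest in XY supporting cells at 12.5 dpc. Ptch1 was most like Sgk3 (0.923), Pmepa1 (0.902) and Tbc1d20 (0.900). Pdgfra was most like Dct (0.940), the melanin pathway enzyme dopachrome tautomerase, Sry (0.937), the testis-determining gene, and Lrrtm2 (0.915), all highest in XY supporting cells at 11.5 dpc. Gli3 was most like Mrpl36 (0.963), Zbtb21 (0.959) and Mrpl51 (0.958), likenesses that dropped to 0.915, 0.799 and 0.774 with aligned row sets. The order of likeness also moved with aligned row sets for the other genes. For Dhh, Col9a3, Olfml1 and Rasl12 then stood at places 13, 48 and 3. For Ptch1, Sgk3, Pmepa1 and Tbc1d20 stood at places 2, 57 and 17. For Pdgfra, Dct, Sry and Lrrtm2 stood at places 1, 6 and 36.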

How the data were processed

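Each of 36 arrays (Affymetrix Mouse Gene 1.0 ST) held labelled RNA of 1 sorted population. The authors deposited log2 values, and the submitters' processing notes name RMA; its version and annotation are not given in the sources used here. Values ran from 3.17 to 15.05, and array medians over genes from 6.54 to 7.01. For arrays, the number of replicates limits the precision. Of 35557 probe sets, 21789 carried 1 gene symbol in the platform annotation, 1621 several and 12147 none; genes with several probe sets were read by the one with the highest mean, leaving 19938.

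Group means of 35 arrays were fitted with limma 3.58.1 in R 4.3.3 (lmFit, eBayes; 23 residual and 26 prior degrees of freedom) and p-values adjusted by Benjamini-Hochberg over all genes. Intervals are 95% and unadjusted. The fit was tested on simulated data. Aligned values are each row set minus its median, divided by its slope (1.01 to 1.06) and moved to the median of all deposited values. Aligning therefore also brought the arrays to a common level. The other alternatives were keeping the array left out, fitting only the groups compared, centring, quantile normalisation, mean of probe sets, leaving out dim genes (below the 25th percentile), array weights, a replicate block and leaving out each replicate.

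The 10 genes, the 3 pathway lists and the marker lists were chosen with earlier results of these data known. The text gives all 10 in every comparison, by value or within a range. Of the pathway genes it names those past the test between the sexes in supporting cells, at most 4 per list, stage and direction. For likeness it names the 3 most similar genes. Comparisons of the sexes in germ cells were added later. Markers of endothelial, macrophage, erythroid and mesonephric cells and of dissociation stress were checked as well. Between the sexes in supporting cells none of 8 endothelial and 7 macrophage markers passed the test at any stage. Of 8 mesonephric markers 1 was lower at 13.5 dpc, of 3 erythroid markers 1 was higher at 12.5 and 1 at 13.5 dpc, and of 9 stress genes 4 were lower in XY at 13.5 dpc. Of 12 Sertoli markers 8, 11 and 11 were higher in XY in order of stage, and of 10 pregranulosa markers 7, 8 and 8 were lower. Of 7 markers of supporting cells of both sexes, 1 was lower at 11.5 dpc, 1 higher and 1 lower at 12.5 dpc, and 2 lower at 13.5 dpc. Beside all these marker counts stand 3.33%, 13.4% and 12.2% of all genes past the test in order of stage.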

Additional observations from a re-analysis of the deposited data

Results flagged for a closer look

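The difference between XY and XX supporting cells changed between stages for Dhh and Pdgfra, by limma's test of the change itself. For Dhh it was larger by 1.15 (log2) at 13.5 than at 11.5 dpc, and for Pdgfra it changed by -1.61. In both cases the XY cells of the 2 stages came from different reporter lines, and stage, reporter and strain cannot be told apart.

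The array labelled germ XX 12.5 dpc replicate 3, used only in the alternative that kept it, held Pdgfra at 10.59 and Pdgfrb at 8.56. The highest values of these genes in the 17 other germ cell arrays were 7.46 and 6.88, and in the 18 supporting arrays 9.85 and 6.83. The interstitial gene Nr2f2 was 10.46 there, while the 17 reached 8.12. With aligned row sets its Pdgfra and Pdgfrb were 10.51 and 7.93, against at most 7.12 and 6.60. Its Ptch1, 8.54, was inside the range of the 17 as deposited but below it with aligned row sets (8.53, against at least 8.71). Its Dhh, 6.51, was above their highest value of 6.43 as deposited but inside their range with aligned row sets (5.97, against at most 6.13).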

How the results depend on the processing

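Of 120 differences of the 10 genes over 12 comparisons, 19 were past limma's test, and 15 of these kept the call in every alternative; 0 settings turned the direction of any of them. A further 21 passed in some alternative only, and 80 in none. Of these 80, 37 changed sign in some setting. The number of the 10 genes past the test in XX cells from 11.5 to 13.5 dpc was 1, against 0 with the left-out array kept, 3 with only the groups compared, 4 with aligned row sets and 4 with array weights, and 0 to 1 without a replicate. In XY cells over the same days it was 2, against 5, 5 and 6 in the last of these 3 settings. It was 1 in place of 0 with array weights for XY 13.5 against 12.5 dpc, and 1 in place of 2 with the left-out array kept for the change of the sex difference. For supporting against germ cells it was 2 in place of 1 in XX with aligned row sets and 3 with array weights (1 to 2 without a replicate), and in XY 1 in place of 2 with the left-out array kept (1 to 3 without a replicate). For XY against XX germ cells at 12.5 dpc it was 1 in place of 0 with the left-out array kept, with arrays centred and with quantile normalisation, and at 13.5 dpc 4 in place of 2 with array weights. Germ cell sex differences at 13.5 dpc that had not passed the test changed sign for Pdgfa (-0.17 in the deposited values, 0.0487 with array weights, -0.41 to 0.0977 without a replicate, but -0.37 and past the test with aligned row sets, adjusted p = 0.00992) and for Gli1 (0.21, and -0.0336 to 0.40 without a replicate). Same-numbered arrays did not deviate together in the comparisons checked (correlations -0.52 to 0.19, every pair above 0.1 in 0 comparisons). The sexes of germ cells were not checked, and differently numbered arrays reached 0.51, so the check cannot settle whether the numbers pair the arrays. With the replicate as a block, 2, 4 and 3 of the 10 genes passed between the sexes in supporting cells in order of stage, as without it. Over all genes, calls between the sexes in supporting cells numbered, in order of stage, 663 (392 to 2200 over the alternatives), 2666 (2057 to 5533) and 2437 (1886 to 6079). They numbered 817 (560 to 2762) in XX and 1768 (1139 to 4804) in XY cells from 11.5 to 13.5 dpc, 183 (69 to 1016) in XY cells from 12.5 to 13.5 dpc, and 850 (518 to 3337) for the change of the sex difference. Supporting against germ cells gave 5267 (4613 to 7543) in XX and 5007 (4220 to 9855) in XY, and the sexes of germ cells 5 (4 to 20), 358 (91 to 775) and 1837 (1194 to 6230). The share of calls that were higher moved from 48.7% to 64.6% with aligned row sets at 11.5 dpc and from 63.5% to 50.7% with quantile normalisation at 12.5 dpc. It moved from 74.4% to 55.6% (quantile) and 63.4% (aligned) in XY cells from 11.5 dpc, from 15.3% to 47.7% (centred), 49.0% (quantile) and 38.8% (aligned) from 12.5 dpc, and from 63.6% to 51.6% (quantile) for the change of the sex difference. In germ cells it moved from 23.7% to 34.2% (centred) and 40.2% (aligned) at 12.5 dpc, and from 100% of 5 calls to 71.4% (centred), 83.3% (quantile) and 35% (aligned) at 11.5 dpc. The cause of these shifts was not tested.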
